A study of Homo sapiens with 6 samples.

Results

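The genes described here are 10 of the 20332 genes in the table: the inhibin alpha subunit gene INHA, the beta subunit genes INHBA, INHBB, INHBC and INHBE, the follistatin gene FST, the TGF-beta ligand genes TGFB1 and TGFB2, GDF15 and BMP2. They were selected on their symbols, as a ligand family with its best-known soluble inhibitor, when the comparison of RAC3 overexpression with negative control was already known for these samples, a lower level of INHA included. Their own differences between the groups are therefore given as descriptions, with the value of each sample and a standard error and without a printed p-value. Which of them passed p-value thresholds is given further below only to describe the fits, and nothing is read from it. RNA came from Huh-7 cells, an established human hepatocellular carcinoma line, and was sequenced after poly(A) selection from 3 samples with stable overexpression of RAC3, a small GTPase of the Rac family, and from 3 negative control samples whose genotype is labelled WT. The stable lines were made with lentivirus, and whether each was a clone or a pool, and which construct the controls carried, are not given in the sources used here. The genotype labels of RAC3 samples 2 and 3 name RAC4 and RAC5 while their titles name RAC3, and the samples were grouped by title. The methods call the RNA samples independent, but nothing states that they came from separate cultures, so p-values measure only the spread between these samples.

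Ligands of the transforming growth factor beta superfamily are secreted dimers that are cut from precursors by furin-like proteases and bind pairs of type II and type I receptor kinases. Dimers of beta subunits form activins, a beta subunit with the alpha subunit forms an inhibin, which opposes activin at its type II receptor, and follistatin binds activins and keeps them from their receptors. Activins and TGF-betas are known to act through SMAD2 and SMAD3, and bone morphogenetic proteins such as BMP2 through SMAD1, SMAD5 and SMAD9. In the liver INHBC and INHBE are known as beta subunit genes expressed mainly by hepatocytes, TGF-beta as a driver of fibrosis, and GDF15 as a secreted signal of cell stress.

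Values are CPM, counts scaled to library size after TMM normalization, unless FPKM is named, and FPKM are the authors' values, scaled to transcript length and to depth and used wherever levels of different genes are set side by side. A value after ± is the SD over the 3 samples of a group. The libraries held 13855762 to 18199888 counts on genes, and a count of 0 allows up to 3 counts, which is 0.167 to 0.215 CPM and covers counting error only. RAC3 lay between 31.4 and 35.6 CPM in the negative controls and between 225 and 240 CPM in the RAC3 samples, RAC3 samples 2 and 3 included. The summed FPKM of 10 hepatocyte and hepatoma markers lay between 2480 and 2820, with ALB (albumin) the highest at a mean of 1540 FPKM and APOA1 the lowest at 10.9 FPKM. The summed FPKM of 8 fibroblast and stellate cell markers was 76.4 to 81.5 in the negative controls and 90.3 to 96.2 in the RAC3 samples. Most of it was LUM at a mean of 62.9 FPKM, while ACTA2 (0.104 FPKM) and DCN (15 counts in all) were near 0. The sum over 10 endothelial and blood cell markers lay between 5.39 and 7.77 FPKM, and the part of other cells in the results was not tested. In RNA of whole cultures, fewer cells with a transcript and less of it per cell cannot be told apart.

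The libraries of the groups also differed by GC content. Of 5771 tested genes whose longest transcript has over 50% GC, 4215 (73.0%) had a lower estimate in the RAC3 samples, against 2142 of 7092 (30.2%) at 50% GC or less. Of the 10 genes described here, the 7 with over 50% GC (INHA, INHBB, INHBC, INHBE, TGFB1, GDF15 and BMP2) were all lower, and of the 3 others FST was lower and INHBA and TGFB2 were higher. Estimates with each library's GC trend removed are therefore printed beside the fitted ones, and the part of GC content in the differences was not tested further.

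INHA (ENSG00000123999, chromosome 2, 219569162 to 219575713 on the plus strand of GRCh38 in GENCODE release 29) had the largest difference of the 10 genes. It was counted at 13.3, 9.26 and 8.03 CPM in negative controls 1, 2 and 3 and at 3.83, 3.58 and 4.33 CPM in RAC3 samples 1, 2 and 3. All RAC3 samples lay below all controls, the RAC3 samples were close to each other, and negative control 1 stood highest. The group means were 10.2 ± 2.73 CPM (SD, n = 3) and 3.91 ± 0.379 CPM (SD, n = 3), a log2 fold change of -1.37 (standard error 0.19), or 0.386 times the control level. These values rest on 139 to 185 counts in a control and 59 to 68 counts in a RAC3 sample. The log2 fold change was -1.15 without negative control 1, -1.53 without negative control 3 and -1.18 with the GC trend removed.

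**Figure D1:**
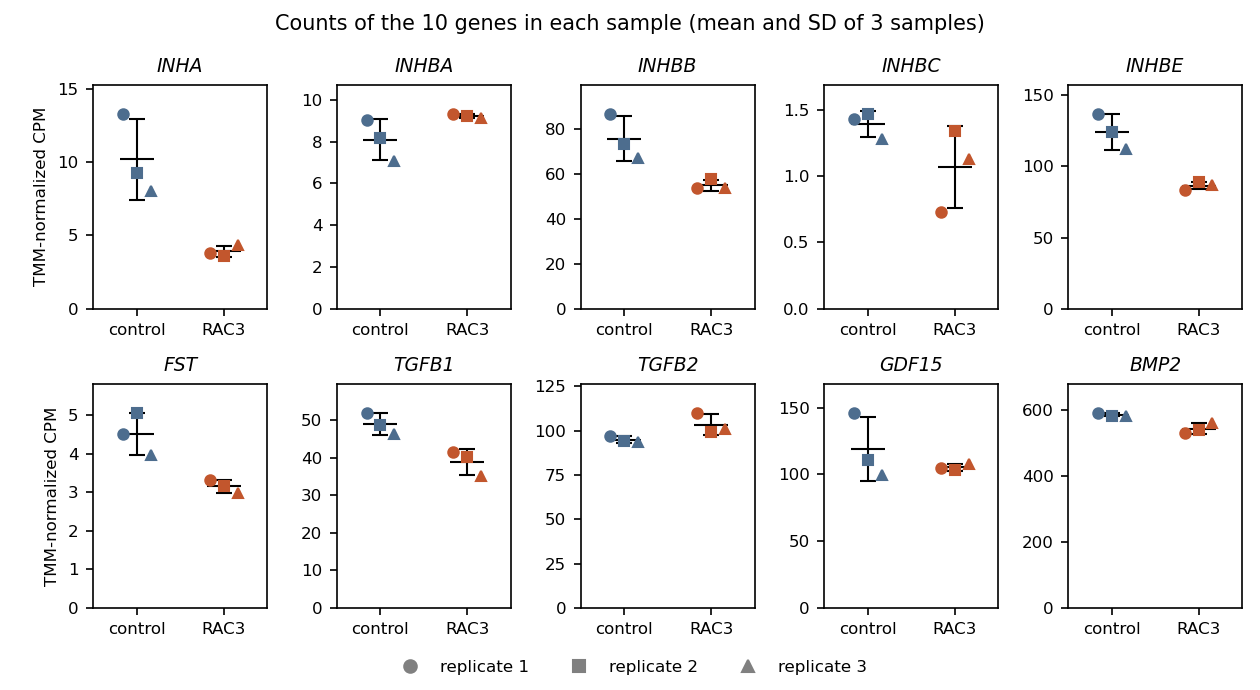
TMM-normalized CPM (y axes, each from 0) of the 10 genes in the 3 negative control and 3 RAC3 samples, with symbols for the replicate number, a line at each group mean and bars of 1 SD. INHA lay between 8.03 and 13.3 CPM in the controls and between 3.58 and 4.33 CPM in the RAC3 samples, while the groups of INHBC and GDF15 overlapped.

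The beta subunit genes INHBB and INHBE were lower in the RAC3 samples as well. INHBB (chromosome 2, 120346143 to 120351808), which encodes the subunit of activin B, was counted at 86.8, 73.4 and 67.0 CPM in the controls and at 53.6, 57.9 and 53.6 CPM in the RAC3 samples. The groups did not overlap, the highest RAC3 sample lay under the lowest control, and the log2 fold change was -0.46 (standard error 0.0771), or -0.34 with the GC trend removed. INHBE (chromosome 12, 57452323 to 57459280), a hepatocyte-enriched beta subunit gene, was counted at 137, 124 and 112 CPM in the controls and at 83.5, 88.8 and 87.1 CPM in the RAC3 samples. Here too every RAC3 sample lay below every control, and the level was 0.698 times that of the controls, a log2 fold change of -0.52 (standard error 0.0637), or -0.44 with the GC trend removed. Both genes followed the controls' order of INHA, with negative control 1 the highest and negative control 3 the lowest. Without negative control 1 the log2 fold changes were -0.35 for INHBB and -0.45 for INHBE.

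Of the other beta subunit genes INHBC had too few counts to place and INHBA was not lower. INHBC lies 1494 bases upstream of INHBE on the same strand of chromosome 12 and was barely counted, with 13 to 23 counts in a sample. Its CPM was 1.43, 1.47 and 1.28 in the controls and 0.732, 1.34 and 1.13 in the RAC3 samples, so that the groups overlapped, and the log2 fold change of -0.39, or -0.30 with the GC trend removed, was close to its standard error of 0.357. At this depth a difference the size of that of INHBB was not detectable. INHBA (chromosome 7, minus strand), whose product forms activin A, was counted at 9.03, 8.19 and 7.08 CPM in the controls and at 9.34, 9.23 and 9.15 CPM in the RAC3 samples. Its RAC3 samples all lay just above the highest control, with a log2 fold change of 0.20 (standard error 0.138) that came to 0.05 with the GC trend removed.

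The activin-binding protein follistatin had few counts. Its gene FST was counted at 4.51, 5.06 and 3.96 CPM in the controls, from 63 to 76 counts, and at 3.32, 3.16 and 2.98 CPM in the RAC3 samples, from 42 to 59 counts. The groups did not overlap, and the log2 fold change was -0.51 (standard error 0.206). FST, whose transcript has 45.1% GC, was lower by slightly more, -0.56, with the GC trend removed.

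On the FPKM scale, which allows levels of different genes to be compared, the beta subunits were mostly INHBE. It made up 66.1% ± 0.721 (SD, n = 3) of the summed FPKM of the 4 beta subunit genes in the controls and 64.2% ± 0.569 (SD, n = 3) in the RAC3 samples, and INHBB made up 30.9% ± 0.862 and 31.3% ± 0.681. The summed beta subunits were 74.8 ± 7.75 FPKM in the controls and 55.9 ± 1.62 FPKM in the RAC3 samples. INHA stood at 11.5%, 9.02% and 8.73% of that sum in the controls and at 5.34%, 4.67% and 5.86% in the RAC3 samples, so that its level was lower relative to the beta subunits too and the groups did not overlap. FST was 2.85% ± 0.545 of the sum in the controls and 2.55% ± 0.155 in the RAC3 samples, within the spread of the controls.

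TGFB1 and TGFB2 had estimates in opposite directions in the main fit, but not with the GC trend removed. TGFB1 (chromosome 19, 41301587 to 41353911, minus strand) was counted at 51.9, 48.7 and 46.2 CPM in the controls and at 41.5, 40.1 and 35.0 CPM in the RAC3 samples. The groups did not overlap, and the log2 fold change of -0.33 (standard error 0.0739) came to -0.13 with the GC trend removed. An exon of TGFB1 overlaps one of HNRNPUL1 on the opposite strand, and the counting is not stated to use strand, so that reads there cannot be told apart. HNRNPUL1 had 841 ± 23.0 CPM in the controls and 772 ± 6.24 CPM in the RAC3 samples.

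TGFB2 (chromosome 1, 218346235 to 218444619) was counted at 97.0, 94.2 and 93.7 CPM in the controls and at 110, 99.1 and 101 CPM in the RAC3 samples. All RAC3 samples lay above all controls by a small margin, the log2 fold change was 0.13 (standard error 0.0544), and with the GC trend removed it was -0.02, so that the direction turned. Its exons overlap those of TGFB2-OT1, a transcript on the same strand that is not in the table. The ratio of TGFB1 to TGFB2 in FPKM was 1.13, 1.08 and 1.03 in the controls and 0.79, 0.842 and 0.724 in the RAC3 samples, and the groups did not overlap. The transcripts have 63.5% and 38.9% GC, and the ratio was not adjusted for it, while with the GC trend removed the estimates of TGFB1 and TGFB2, -0.13 and -0.02, lay close together.

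GDF15 and BMP2 were the most abundant of the 10 genes in FPKM. GDF15, induced by mitochondrial and other stress, was counted at 146, 111 and 99.7 CPM in the controls and at 105, 103 and 108 CPM in the RAC3 samples. The RAC3 samples lay inside the range of the controls, which negative control 1 stretched upwards. The log2 fold change of -0.17 (standard error 0.0901) was 0.00 without negative control 1 and 0.03 with the GC trend removed. BMP2, a bone morphogenetic protein that in liver induces hepcidin, was counted at 590, 582 and 581 CPM in the controls and at 529, 538 and 560 CPM in the RAC3 samples. Its groups did not overlap, but the log2 fold change was small, -0.11 (standard error 0.0383), and came to -0.05 with the GC trend removed.

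**Figure D2:**
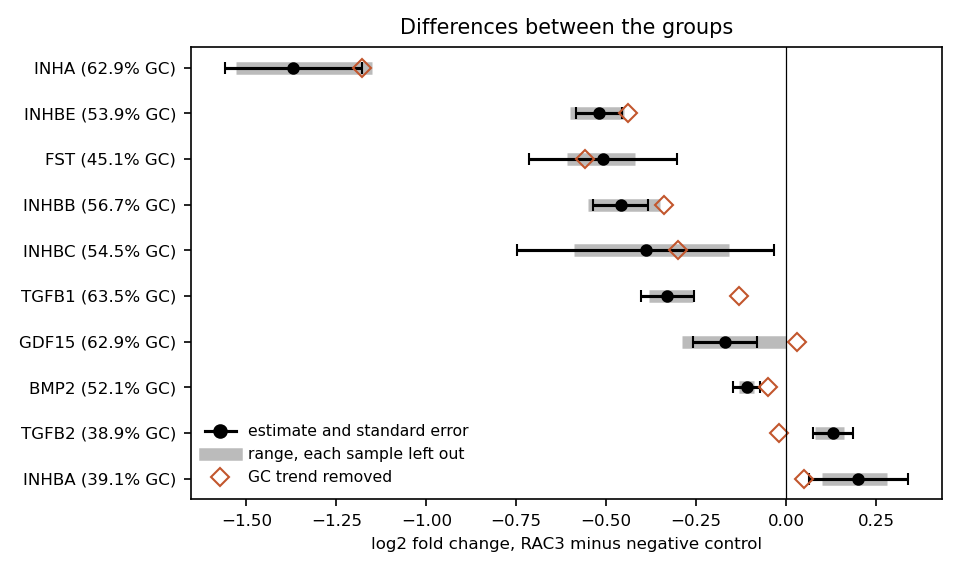
Log2 fold change of each gene, RAC3 minus negative control (x axis), with its standard error (thin bars), the range of estimates when each sample was left out (grey bars) and the estimate after removal of the GC trend (open diamonds), and the GC content of the longest transcript beside the name. INHA lies farthest from 0 at -1.37, and the diamonds of TGFB2 and GDF15 lie on the other side of 0 from their estimates.

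All 10 genes passed the filter on low counts. Of the 10, 8 were lower and 2 were higher in the RAC3 samples, with a median log2 fold change of -0.36 against 0.00 over all 12941 genes tested. The groups did not overlap and were lower in the RAC3 samples for 6 genes (INHA, INHBB, INHBE, FST, TGFB1 and BMP2), where 21.6% of all genes tested did the same, and did not overlap and were higher for INHBA and TGFB2, where the share of all genes was 20.9%. An adjusted p-value below 0.05 from edgeR's quasi-likelihood test was reached in the lower direction by 5 of the 10 genes (INHA, INHBB, INHBE, TGFB1 and BMP2), where 15.3% of all genes tested reached it. The higher direction, with 13.3% of all genes, held none of the 10 by edgeR or by DESeq2 and 1 at an unadjusted p under 0.05. At the thresholds of the study, a fold change above 1.5 and an unadjusted p-value below 0.05, INHA alone was past them, in the lower direction that held 2.99% of all genes tested, and the higher direction held 1.68%. Since the genes were selected on this comparison, nothing is read from these counts. Negative control 1 was the highest of the controls for 8 of the 10 genes (80.0%) and for 4761 of the 12941 genes tested (36.8%).

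In order of level, the mean FPKM over all 6 samples was 159 for BMP2, 92.8 for GDF15, 42.6 for INHBE, 20.3 for INHBB, 17.1 for TGFB2, 15.8 for TGFB1, 5.16 for INHA, 2.04 for INHBA, 1.77 for FST and 0.383 for INHBC. BMP2 and GDF15 together made up 69.1% ± 0.608 (SD, n = 3) of the summed FPKM of the 9 ligand subunit genes in the controls and 72.8% ± 0.839 (SD, n = 3) in the RAC3 samples. Some neighbours in this order did not differ beyond their spread: FST (2.11 ± 0.367 FPKM) and INHBA (1.85 ± 0.45 FPKM) in the controls, and TGFB2 (18.2 ± 1.15 FPKM) and INHBB (17.5 ± 0.728 FPKM) in the RAC3 samples. INHA was at 7.38 ± 1.92 FPKM in the controls and at 2.95 ± 0.287 FPKM in the RAC3 samples, where the next lower gene was INHBA at 2.22 ± 0.031 FPKM.

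**Figure D3:**
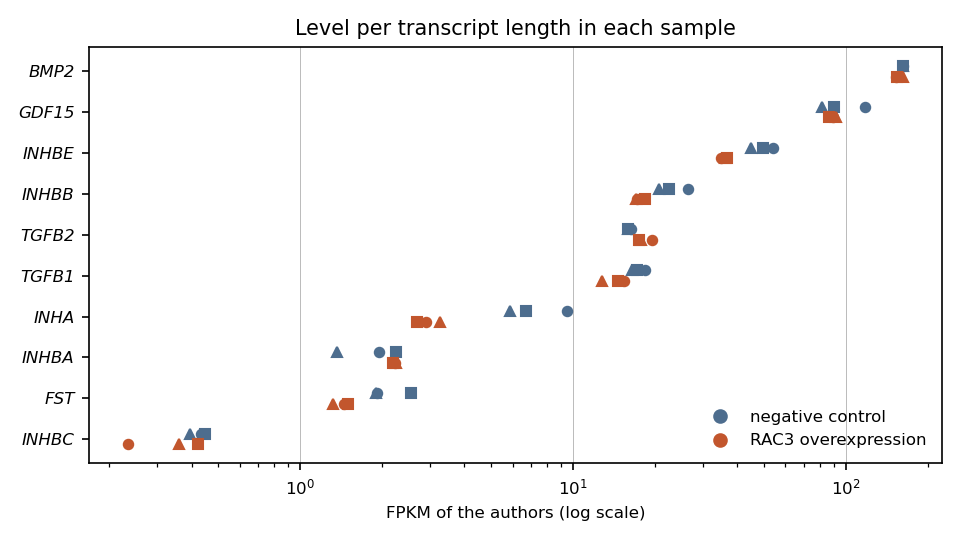
FPKM of the 10 genes on a log10 axis in each sample, ordered by mean level, with negative controls and RAC3 samples in separate colours. BMP2 lies at the top with a mean of 159 FPKM and INHBC at the bottom with 0.383 FPKM, and INHA is the gene whose colours lie farthest apart.

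The promoter windows of 3 genes are shown, INHA for the largest difference, INHBB as a beta subunit gene that was lower, and TGFB2 as the more abundant of INHBA and TGFB2, the genes whose RAC3 samples all lay above the controls. Each is the 250 bases before the RefSeq start site on GRCh38.p14, plus strand, at chr2:219572060-219572309 for INHA, chr2:120345886-120346135 for INHBB and chr1:218345086-218345335 for TGFB2. Capitals mark matches on either strand to TGACG, the core of the cAMP response element, TGANTCA (AP-1 element), ACGTG (hypoxia response element core), GGGCGG, known as the GC box, and TATAAA, the TATA box of core promoters, and overlapping matches run together.
INHA: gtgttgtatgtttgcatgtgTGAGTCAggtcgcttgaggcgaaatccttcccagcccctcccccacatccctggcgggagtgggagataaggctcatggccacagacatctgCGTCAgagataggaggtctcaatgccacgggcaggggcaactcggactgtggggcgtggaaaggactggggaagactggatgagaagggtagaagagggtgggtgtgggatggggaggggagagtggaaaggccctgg
INHBB: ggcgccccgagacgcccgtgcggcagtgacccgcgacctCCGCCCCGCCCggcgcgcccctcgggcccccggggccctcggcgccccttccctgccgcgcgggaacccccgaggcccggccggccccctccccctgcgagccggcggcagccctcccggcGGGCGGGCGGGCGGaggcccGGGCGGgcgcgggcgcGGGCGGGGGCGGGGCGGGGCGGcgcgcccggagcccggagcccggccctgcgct
TGFB2: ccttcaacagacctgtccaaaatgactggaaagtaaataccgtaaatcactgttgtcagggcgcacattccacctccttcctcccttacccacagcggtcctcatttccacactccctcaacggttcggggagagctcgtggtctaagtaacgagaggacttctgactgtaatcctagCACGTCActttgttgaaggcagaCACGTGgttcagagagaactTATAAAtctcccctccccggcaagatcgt

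A window was given for 8 of the 10 genes, all except INHBE and BMP2. INHA, whose RefSeq start lies inside the longer GENCODE span, holds TGANTCA at positions -230 to -224 and, on the minus strand, TGACG at positions -138 to -134, counted from -1 for the last base before the start. TGANTCA is found in 6.57% and TGACG in 21.2% of 35116 promoter windows of the same length, and FST and TGFB2 respectively hold them as well. INHBB, at 89.6% GC against a median of 58.0% over all windows, holds 10 matches to GGGCGG, a motif that 42.6% of windows have and that FST, TGFB1 and GDF15 share. TGFB2, at 50.4% GC, holds TATAAA at positions -29 to -24, as GDF15 does. INHBA holds it at positions -11 to -6, and 10.7% of windows hold it. ACGTG, in 18.5% of windows, is in those of TGFB2 and INHBC, and in TGFB2 it shares bases with TGACG. The full palindrome TGACGTCA (1.65% of windows), the ATF4-type element TGATGNAA (3.14%), AACAAT (8.98%), a SOX-type element, and the SMAD palindrome GTCTAGAC (0.182%) had no match in the 8 windows. A match says only that the letters are there.

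The genes whose pattern over the 6 samples was most like that of INHA, by the Euclidean distance of centred log2(CPM + 1) values among 12867 candidates, were C8orf58 at a distance of 0.224, PNCK at 0.265, MXI1 at 0.311, ENO2 at 0.322 and HR at 0.352. MXI1 encodes a MAX partner that opposes MYC, ENO2 a glycolytic enolase and PNCK a calmodulin-dependent kinase. Their log2 fold changes lay between -1.56 for PNCK and -1.13 for HR, beside -1.37 for INHA. The distance takes in the group difference, so the closeness of these log2 fold changes follows from how the genes were chosen. All share the 6 libraries with INHA, and the likeness is a description.

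The rest of the pathway and the integrated stress response were followed in 8 lists of general knowledge, which hold 131 genes, some of them in more than 1 list. The lists were written with earlier results of these data known, so their counts are descriptions and no independent evidence of a pathway change. All genes of the 8 lists, the stress response genes included, are called pathway genes here. Of these, 100 were tested, and 14 rose and 32 fell at an adjusted p below 0.05 by edgeR's quasi-likelihood test, beside the 13.3% of genes higher and 15.3% lower over the whole table. Of the 56 tested pathway genes with over 50% GC, 44 (78.6%) had a lower estimate in the RAC3 samples. With the GC trend removed 11 were higher and 25 lower, where that fit called 9.9% of 12863 genes higher and 11% lower.

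**Figure D4:**
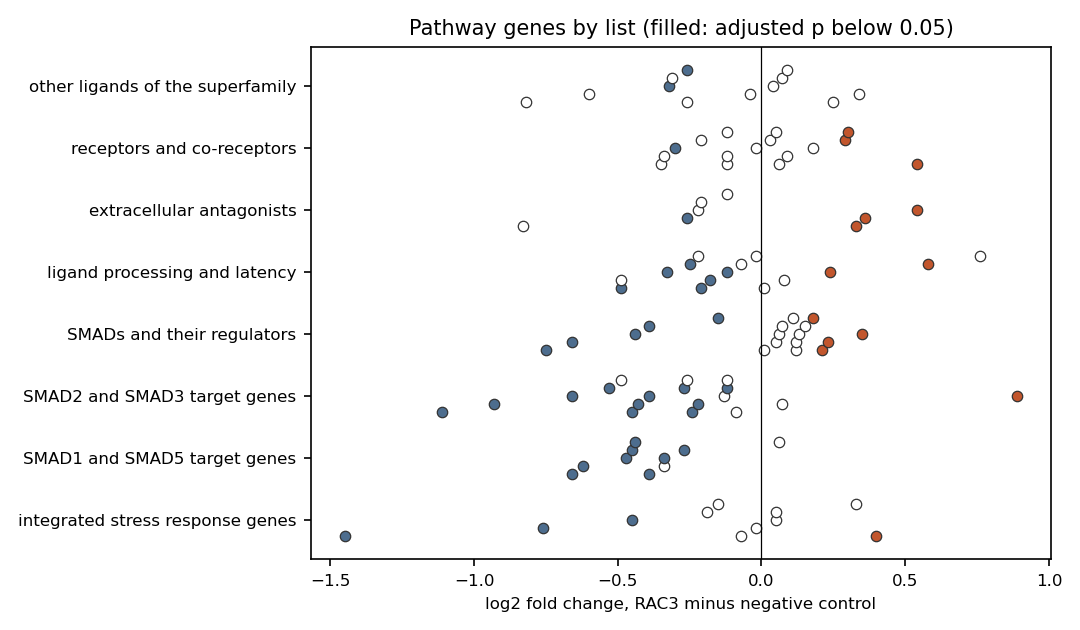
Log2 fold change, RAC3 minus negative control (x axis), of each tested gene in 8 pathway lists. Points are filled where the gene was called at an adjusted p below 0.05 (edgeR, adjusted over 12941 genes). Of the 10 SMAD1 and SMAD5 target genes 8 were lower, and of the 16 tested receptors and co-receptors 12 were not called.

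Of 24 other ligand genes, 12 were tested, 2 fell and 10 did not pass, with a median log2 fold change of -0.15. None rose by edgeR, by DESeq2 or at an unadjusted p under 0.05, where the counts were 0, 0 and 0. BMP4, which like BMP2 acts through SMAD1 and SMAD5, was counted at 145, 165 and 153 CPM in the controls and at 126, 123 and 123 CPM in the RAC3 samples, which do not overlap with the controls. It fell by 0.32 on the log2 scale (standard error 0.0517, edgeR adjusted p = 0.00015). BMP8B, which shares near-identical sequence with BMP8A and so is uncertain, fell by 0.26 on the log2 scale (adjusted p = 0.024 by edgeR), a call lost in 7 of 14 alternatives, among them DESeq2 and the removal of the GC trend (adjusted p = 0.22). TGFB3 had 32 counts over all samples and was not tested, and 6 genes of this list had 0 counts in every sample.

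Among receptors and co-receptors 3 rose, 1 fell and 12 of 16 did not pass, with a median of 0.00. TGFBR2, the type II receptor of TGF-beta, was counted at 239, 256 and 259 CPM in the controls and at 326, 290 and 308 CPM in the RAC3 samples. Every RAC3 sample lay above every control, with a log2 fold change of 0.30 (standard error 0.048, edgeR adjusted p = 0.00015) and of 0.28 with the GC trend removed. TGFBR1, the type I receptor that pairs with it, rose by 0.29 (edgeR adjusted p = 0.0022), which came to 0.15 with the GC trend removed (adjusted p = 0.12). ACVR2B, a type II receptor of activins, fell by 0.30 on the log2 scale (standard error 0.07, edgeR adjusted p = 0.0033), and ACVR1C, a type I receptor used by nodal and some activins, rose by 0.54 (edgeR adjusted p = 0.023), or 0.37 with the GC trend removed (adjusted p = 0.13). The call of ACVR1C was lost in 7 of 14 alternatives, DESeq2 included. GFRAL and RET, which form the known receptor complex of GDF15, had 1 count each over all samples.

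Of the extracellular antagonists 8 of 15 were tested, 3 rose and 1 fell. FSTL1, a follistatin-like glycoprotein, was counted at 109, 114 and 110 CPM in the controls and at 140, 141 and 137 CPM in the RAC3 samples, opposite in direction to FST, and rose by 0.33 (standard error 0.0482, edgeR adjusted p = 5.3e-05). FSTL3, an activin-binding relative of follistatin, was counted at 67.9, 49.0 and 54.4 CPM in the controls and at 46.6, 48.2 and 47.7 CPM in the RAC3 samples. Its fall of -0.26 on the log2 scale (edgeR adjusted p = 0.029) was -0.13 without negative control 1 and -0.05 with the GC trend removed, and neither passed. BMPER and TWSG1, which bind bone morphogenetic proteins, rose by 0.54 and 0.36 (edgeR adjusted p = 0.037 and 0.036), calls that DESeq2 and the removal of the GC trend did not make.

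Of the genes for ligand processing and latency 15 of 18 were tested, 2 rose and 6 fell, and with the GC trend removed 2 were higher and 2 lower. FURIN, the protease that cuts the precursors of these ligands, had 733 ± 38.4 CPM in the controls and 632 ± 18.7 CPM in the RAC3 samples and fell by 0.21 on the log2 scale (edgeR adjusted p = 0.0009), which was -0.03 with the GC trend removed (adjusted p = 0.52). LTBP4 and LTBP3, latent TGF-beta binding proteins, fell by 0.49 and 0.33 on the log2 scale (edgeR adjusted p = 6.6e-05 and 0.00059), and with the GC trend removed LTBP4 was at -0.25 (adjusted p = 0.0079) and LTBP3 at -0.08 (adjusted p = 0.31). PCSK5, a furin-like protease, was higher in all RAC3 samples and rose by 0.58 (edgeR adjusted p = 0.0016), or 0.59 with the GC trend removed. ITGAV, the integrin alpha v subunit that activates latent TGF-beta, rose by 0.24 (edgeR adjusted p = 0.00072), or 0.09 with the GC trend removed (adjusted p = 0.083).

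All 18 SMADs and regulators were tested, 4 rose, 5 fell and 9 did not pass. The inhibitory SMAD6 and SMAD7 had 54.3 ± 5.89 and 63.6 ± 9.43 CPM in the controls and 40.1 ± 1.67 and 48.3 ± 2.32 CPM in the RAC3 samples. They fell by 0.44 and 0.39 on the log2 scale (edgeR adjusted p = 0.00026 and 0.0014), or -0.28 and -0.24 with the GC trend removed (adjusted p = 0.0039 and 0.021). SMAD9, a receptor-regulated SMAD of bone morphogenetic proteins, fell by 0.66 (standard error 0.133, edgeR adjusted p = 0.0011), and TGIF2, a corepressor of SMAD2 and SMAD3, fell by 0.75 (standard error 0.0886, edgeR adjusted p = 5.4e-06), and both kept the call with the GC trend removed. Of those that rose, NEDD4L, a ubiquitin ligase of activated SMAD2 and SMAD3, kept its call with the GC trend removed (0.23 and then 0.14, edgeR adjusted p = 0.0014 and 0.018), and USP15, SMAD5 and TGIF1 did not. The call of TGIF1 was lost in 9 of 14 alternatives, DESeq2 and limma-voom included.

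SMAD target genes were followed in 2 lists. All 10 genes of the SMAD1 and SMAD5 target list were tested and 8 fell, with a median log2 fold change of -0.41, and 8 fell at an adjusted p under 0.05 in each of the other fits, those that left out a sample and the one with the GC trend removed included. None rose by edgeR or DESeq2, and 0 did so at an unadjusted p under 0.05. ID2, a helix-loop-helix inhibitor of differentiation, was counted at 279, 237 and 209 CPM in the controls and at 179, 177 and 165 CPM in the RAC3 samples. ID3, of the same family, was counted at 473, 433 and 433 CPM in the controls and at 328, 336 and 319 CPM in the RAC3 samples. Neither gene's groups overlapped, and they fell by 0.47 and 0.45 on the log2 scale (standard errors 0.0716 and 0.044, edgeR adjusted p = 7.1e-05 and 6.6e-07), or -0.40 and -0.32 with the GC trend removed. ATOH8, a transcription factor that bone morphogenetic protein signalling induces in liver cells, had 17.2 ± 1.07 CPM in the controls and 11.2 ± 1.09 CPM in the RAC3 samples and fell by 0.62 (edgeR adjusted p = 0.00037). The rest of the list were ID1 (-0.34, edgeR adjusted p = 5.8e-06, or -0.20 with the GC trend removed), ID4 (-0.27, adjusted p = 0.0041), SMAD6, SMAD7 and SMAD9 above, BAMBI (0.06, adjusted p = 0.50) and the hepcidin gene HAMP (-0.34, adjusted p = 0.61), which had under 2 CPM in every sample. Most of these genes are known to respond to other pathways too, and a level of RNA does not measure SMAD activity.

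**Figure D5:**
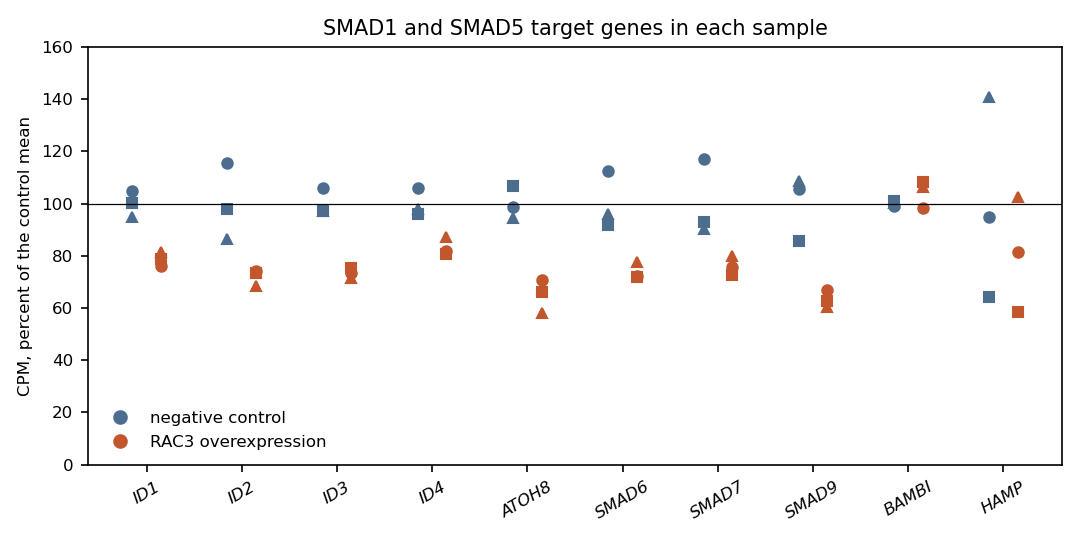
CPM of the 10 SMAD1 and SMAD5 target genes as a percent of the mean of the negative controls (y axis), for each negative control and each RAC3 sample. For 8 genes, ID1 to SMAD9, all RAC3 samples lie below all controls, with no overlap, and for BAMBI and HAMP the groups overlap.

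Of 18 tested SMAD2 and SMAD3 target genes 11 fell, 1 rose and 6 did not pass, with a median of -0.27, and with the GC trend removed 9 were lower and 1 higher. CCN2, connective tissue growth factor, had 759 ± 29.8 CPM in the controls and 557 ± 18.9 CPM in the RAC3 samples and fell by 0.45 (edgeR adjusted p = 2.8e-07), and PDGFB, a platelet-derived growth factor gene, fell by 0.53 (edgeR adjusted p = 7.1e-05). BHLHE40, a transcriptional repressor that also responds to hypoxia, was counted at 216, 131 and 84.2 CPM in the controls and at 72.1, 61.9 and 64.5 CPM in the RAC3 samples. Its controls were spread widely, and its log2 fold change of -1.11 (edgeR adjusted p = 0.00031) was -0.70 without negative control 1. CDKN2B, the p15 cell cycle inhibitor, was the gene that rose, from 9.46, 9.59 and 11.5 CPM in the controls to 21.8, 16.9 and 18.2 CPM in the RAC3 samples, a log2 fold change of 0.89 (standard error 0.121, edgeR adjusted p = 2.3e-05).

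The list of integrated stress response genes, followed because GDF15 and INHBE are known to respond to this pathway, did not move in 1 direction. Of 11 tested, 3 fell, 1 rose and 7 did not pass, with a median of -0.07, and with the GC trend removed 4 were higher and 4 lower. ASNS, asparagine synthetase, had 417, 424 and 435 CPM in the controls and 251, 256 and 244 CPM in the RAC3 samples and fell by 0.76 on the log2 scale (edgeR adjusted p = 2.6e-10), and TRIB3, a pseudokinase gene, fell by 0.45 (edgeR adjusted p = 1.4e-05), or -0.28 with the GC trend removed. DDIT4, an inhibitor of mTORC1 that hypoxia also induces, was counted at 112, 63.2 and 37.0 CPM in the controls and at 23.1, 26.6 and 27.2 CPM in the RAC3 samples. Like INHA, INHBB and INHBE it was highest in negative control 1, and its log2 fold change of -1.45 (edgeR adjusted p = 0.00016) was -0.96 without that sample. ATF3, a stress-induced transcription factor, rose by 0.40 (edgeR adjusted p = 0.001), while ATF4, the factor at the centre of the response, was at -0.07 (edgeR adjusted p = 0.20). These RNA levels do not measure the activity of ATF4 or of the response.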

How the data were processed

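The authors deposited 1 table with raw read counts per gene and sample and with FPKM values per sample. The submitters' processing notes name Bowtie2 2.2.8, HISAT2, StringTie 1.3.1 and DESeq2, and the genome build, annotation and counting tool are not given in the sources used here. The deposited FPKM rest on transcript lengths that are not stated and that differ between samples, and the authors' mean FPKM columns were not used. Groups were taken from sample titles. Of the identifiers, 20113 are in GENCODE release 29, which gave gene positions and the GC content of the longest transcript, and 219 are not.

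Counts were fitted with edgeR 4.0.16 (R 4.3.3): filterByExpr (12941 genes left), TMM, and the quasi-likelihood test, two-sided, 3 against 3 samples, no covariate, with Benjamini-Hochberg adjustment over all genes tested. The biological coefficient of variation was 0.0533. Standard errors are those of the log2 fold change. Exact permutation of 3 against 3 samples cannot go below p = 0.1. The genes and lists were chosen with earlier results of these data known, and the lists were written from general knowledge. Named in each list are the up to 4 higher and 4 lower genes with the largest log2 fold change among those called, without overlap and with a mean of at least 10 counts, plus members, RAC3, the highest and lowest marker by FPKM and the 5 genes most like INHA. Other named genes, among them ID1, ID4, BAMBI, HAMP, HNRNPUL1, TGFB3, GFRAL, RET, ATF4 and DCN, were added after their values were seen. A gene of the lists that the rule names is not reported here. The GC trend was removed per library by lowess (span 0.3, 12863 genes), chosen after the data were seen. Alternatives were DESeq2 1.42.0, limma-voom (limma 3.58.1), other scalings and filters, a replicate block and leaving out each sample. The steps were tested on simulated data. Promoter sequences are from RefSeq.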

Additional observations from a re-analysis of the deposited data

How the results depend on the processing

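The 10 genes were chosen with this comparison known, so nothing is read from their calls, which only describe the fits. INHA, INHBB and INHBE were called lower in all 14 alternatives with a test, and TGFB1 in all except with the GC trend removed. The call of BMP2 was lost with library size alone, with the replicate block, with the GC trend removed and without any of the samples negative control 1, 2 and 3, RAC3 1 and RAC3 2. TGFB2 was called higher with library size alone and GDF15 lower without negative control 3. Hence 3 of the 10 genes were called with the GC trend removed (3 lower), 1 was called higher with library size alone, and 1 (lower) passed the thresholds of the study. Leaving out 1 sample at a time gave 4 to 5 of the 10 genes called, 37 to 42 pathway genes (10 to 13 higher, 26 to 29 lower) and 2630 to 3311 genes of the whole table (1164 to 1522 higher, 1466 to 1789 lower). With the GC trend removed 1273 genes of the whole table were higher and 1411 lower. Library size alone gave 2613 higher and 1381 lower genes, against 1717 and 1974 with TMM, and moved the median log2 fold change of all genes by 0.06. The thresholds of the study, applied to the edgeR fit, gave 605 genes (218 higher, 387 lower), of them 10 pathway genes (2 higher, 8 lower). These are counts of this fit and differ from those that the paper reported. Over 36 named pathway genes and 14 alternatives, 456 of 504 calls were kept, 48 were lost and 0 turned direction. The genes were named because they were called, so the share kept is no separate support. Each gene that lost any call lost it with the GC trend removed, alone or among other fits. These were BMP8B, ACVR1C, TGFBR1, FSTL3, BMPER, TWSG1, FURIN, PCSK6, LTBP3, ITGAV, SMAD5, TGIF1 and USP15. The cause of the lost calls was not tested.

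The replicate numbers of the titles did not pair the samples: deviations of same-numbered samples correlated at -0.14, -0.069 and -0.019 over 10169 genes. With the replicate block 3261 genes were called (1484 higher, 1777 lower), among them 43 pathway genes and 4 of the 10 genes.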
